A study of Mus musculus with 6 samples.

Results

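The regions described here are the intronic peaks of genes in which no peak was assigned to an exon. A peak of the authors' table was a member when it was classed as intronic, carried a gene name, and none of its names occurred in any peak classed as coding sequence, 3′ UTR or 5′ UTR. This held for 5909 of the 55449 peaks (10.7%), in 1811 gene names. The other 17552 named intronic peaks lay in genes that also had an exonic peak.

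The peaks come from eCLIP, a method that fixes proteins onto their RNA with ultraviolet light and pulls down 1 protein with its attached fragments by an antibody. The cells were MLTC-1, an established mouse Leydig tumour line, crosslinked at 254 nm with 400 mJ per cm2 in every library. Of the 6 libraries, 2 were immunoprecipitates made with an antibody to ZFP36L2 (ab70775) and 1 with rabbit IgG (ab313801) as negative control, and each had its own input, a background library of RNA bound by all proteins. The deposited values are 1 log2 fold change of ZFP36L2 over IgG, 1 p-value and 1 adjusted p-value per peak. No library has values of its own, so neither depth nor the spread between libraries is known for any peak, and the IgG arm is 1 immunoprecipitate.

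ZFP36L2 belongs to a family of CCCH zinc finger proteins that bind AU-rich elements, mostly in 3′ UTRs, and recruit deadenylases that shorten the life of the mRNA. Introns are removed in the nucleus while the transcript is being made or soon after. An intronic eCLIP read can come from unspliced pre-mRNA, a retained intron or an excised intron, or from another transcript that overlaps the intron. Of the member genes, 18 also had a peak of the remaining classes, Other or miRNA.

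Sequence could be read for few members. A window of 300 bases around a RefSeq transcription start (build GRCm38.p6, 250 bases before to 50 after) wholly contained 25 members, and none of the 34 members that overlapped such a window was called in either direction. The 7 contained members of 13 to 30 bases are shown, as the sites here whose letters can be set beside a value, 5′ to 3′ on the strand of the peak as DNA letters, with A and T in capitals to mark the AU content.

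Ugt1a cluster, chr1:88205899-88205912, + strand: TggTgATTgggTTg

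Tbc1d22a, chr15:86277620-86277633, + strand: ggTgTTggcTcAgg

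Tfb1m, chr17:3532366-3532378, - strand: gggcAcAcTgAcT

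Sin3a, chr9:57076356-57076368, + strand: gcgggATTTcccg

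Gm21992, chr19:4793920-4793939, - strand: ggccAATccggTgggTAggT

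Stambp, chr6:83568071-83568083, - strand: TggggcTcAgAcT

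Gm28308 and Hoxa3, chr6:52208802-52208822, - strand: TgccTcggTcgccgcggTccc

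In the authors' deposited table, these had log2 fold changes of 0.68 (Ugt1a), -0.08 (Tbc1d22a), -0.86 (Tfb1m), -1.14 (Sin3a), -1.94 (Gm21992) and -1.84 (Gm28308 and Hoxa3), each with an adjusted p of 1, and -2.52 (Stambp) with an adjusted p of 0.23. Their A and T content ran from 50% in the Ugt1a peak to 19% in the Hoxa3 peak, with 35.7% in Tbc1d22a, 38.5% in both Tfb1m and Stambp, 30.8% in Sin3a and 35% in Gm21992. Over the 25 contained members the median was 35.7% (range 0 to 68.5%), against a median of 47.3% over all 32851 windows. The pentamer ATTTA and the heptamer TATTTAT, which contains it, were searched on the peak's strand and occurred in 0 of the 25, while 34.1% and 5.6% of the windows held them on either strand. A window is far longer than a peak, so these shares are not comparable, and the windows lie at gene starts, where few members do.

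Calls needed an adjusted p under 0.05: enriched peaks then had a log2 fold change of at least 1, depleted peaks one of -1 or lower. Of the 5909 members, 108 were enriched (1.83%, against 2.22% of all peaks) and 474 depleted (8.02%, against 5.44% of all peaks), and 5327 were not called. Intronic peaks of genes with exonic peaks had 400 enriched (2.28%) and 1177 depleted (6.71%). There were 4.39 depleted peaks per enriched one among members, 2.94 among the other intronic peaks and 2.45 in the whole table. By gene, 33 of 1811 names had an enriched member (1.82%, against 5.04% of all genes by any peak) and 308 a depleted one (17%, against 17.3%). Among genes with both intronic and exonic peaks, 140 of 3910 (3.58%) had an enriched and 731 (18.7%) a depleted intronic peak. A gene with more peaks has more chances of a call, and the medians were 2 members per gene here and 3 intronic peaks there. By peak, the members' enriched share of 1.83% was near the 2.22% of all peaks. By gene, 1.82% was below 5.04%, but that background counts peaks of every class, with a median of 3 per gene. The share of genes with a depleted site was close to the table's background.

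The members' log2 fold changes were lower as a body than those of the other intronic peaks and of all peaks together. The median was -1.62 (95% binomial interval of the median -1.66 to -1.60, which treats peaks as independent), against -1.20 for other intronic peaks and -1.06 for all peaks. Values below 0 made up 85.7% of members, 78.6% of other intronic peaks and 76.2% of all peaks. After centring on the median of all peaks, 65.2% of members were still below 0 and their median was -0.56. Among called peaks, enriched members had a median of 2.90 and depleted members -3.33, against 3.27 and -3.31 in the whole table. The differences between these sets are descriptions, and no source used here states how the deposited fold changes were normalized.

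**Figure D1:**
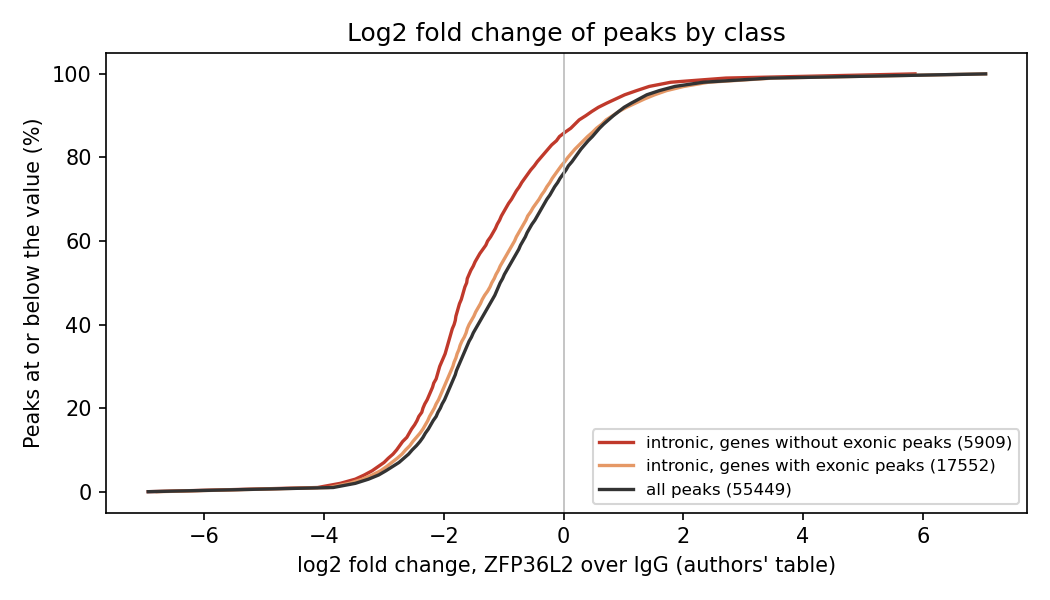
Cumulative share of peaks (y axis, percent) at or below each log2 fold change of ZFP36L2 over IgG (x axis) for members, for intronic peaks of genes with exonic peaks and for all peaks. The members' curve lies to the left over most of the range, with medians of -1.62, -1.20 and -1.06 in that order.

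A pair of genes held most of the enriched members. Cyp11a1 held 33 and Nckap5 held 26, together 59 of 108 (54.6%). Without both, an alternative chosen after the values were seen, 49 of 5806 members were enriched (0.844%), and depleted members numbered 467 (8.04%). Depleted members were spread out: the pair of genes with the most, Afg1l and Wwox, held 16 of 474 (3.38%).

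Cyp11a1 encodes the mitochondrial side-chain cleavage enzyme that makes pregnenolone from cholesterol, the first step of steroid synthesis in Leydig cells. All 35 of its peaks were classed as intronic by the table and on the plus strand, and all had a log2 fold change above 0, from 0.73 to 5.87 with a median of 4.20, per the authors' deposited table. The first 3, per the authors' deposited table, had 2.86 (enriched), 0.73 and 0.90 (not called) and lay 62% to 70.4% of the way along the 29 kb RefSeq gene. The other 32 were all enriched and packed into 2698 nucleotides, chr9:58021751-58024448, at 81.9% to 91% of the gene. There they formed 12 separate stretches that covered 1366 nucleotides.

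The height within this cluster was uneven. At its 5′ side, 9 touching peaks from 58021934 to 58022128 had log2 fold changes of 4.08 to 5.68, per the authors' deposited table, and the smallest adjusted p there was 5.5e-157. The largest value of any member, 5.87 (the authors' deposited table gives an adjusted p of 2.5e-73), was the single peak at 58021815 to 58021887 just upstream of them. A dip followed, in which 5 peaks from 58022239 to 58022684 had only 1.05 to 1.84, though each was called, per the authors' deposited table. Values then returned to 3.79 to 5.04 over the 413 nucleotides from 58023179 to 58023591, the longest unbroken stretch, and stayed between 3.70 and 5.08 to the end of the cluster, per the authors' deposited table. The dip was marked off by its values, under 2 against over 3 in the rest of the cluster. The gap between its highest value (1.84) and the lowest outside it (3.70) therefore only describes that split. Exon positions of Cyp11a1 were not used here, so neither the cluster's place against splice sites nor any overlap of these peaks with exons of another transcript was examined.

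**Figure D2:**
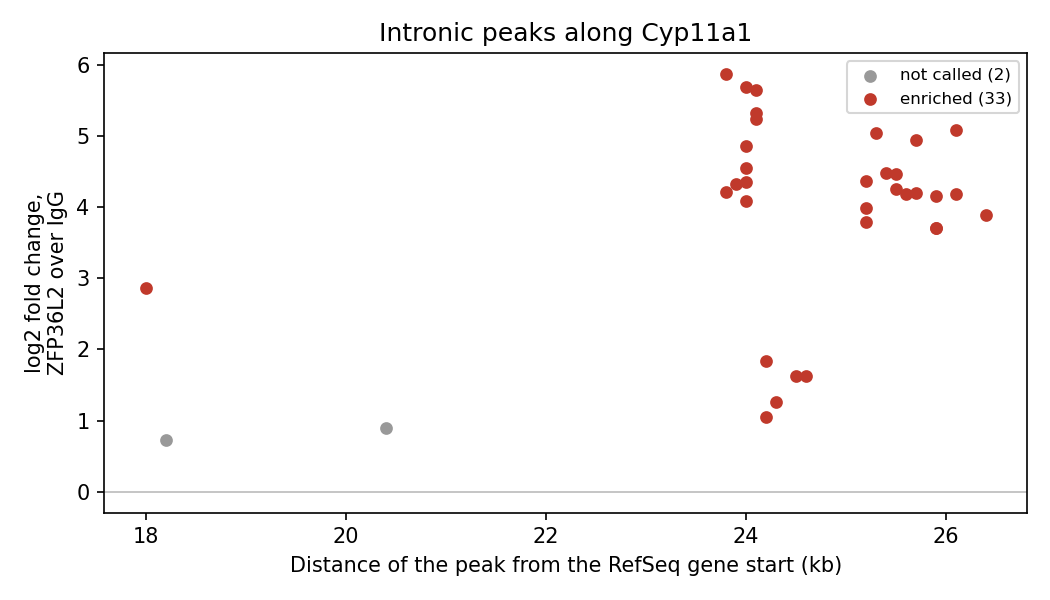
Log2 fold change (y axis) of the 35 Cyp11a1 peaks against distance from the RefSeq gene start in kb (x axis), red for enriched and grey for not called. The dense group on the right is the cluster of 32 enriched peaks, with the 5 peaks of the dip at 1.05 to 1.84 below the rest.

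Nckap5, which encodes NCK-associated protein 5, had 68 members over 555 kb of its 917 kb RefSeq span on the minus strand of chromosome 1. Of these, 26 were enriched, 7 depleted and 35 not called. The calls did not intermingle. Read from the gene start, 9 enriched peaks lay 348 to 440 kb in, 7 depleted peaks lay 465 to 567 kb in, and 17 enriched peaks lay 576 to 692 kb in.

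In the block nearest the start (chr1:126390356-126482678), all 9 peaks were enriched, with log2 fold changes of 1.91 to 3.56 and a median of 2.29, per the authors' deposited table. The largest, at 126482617 to 126482678, had the smallest adjusted p of the gene (1.4e-12, per the authors' deposited table). In the middle block (chr1:126263373-126366126), 7 of 18 peaks were depleted at -3.28 to -2.89, per the authors' deposited table, and the highest of all 18 was -0.50 there. In the third block (chr1:126139276-126255235), 17 of 21 peaks were enriched at 2.17 to 3.07, and the lowest of the 21 was 1.66, per the authors' deposited table. The blocks were drawn as runs of calls in 1 direction, so the signs of their called peaks were fixed by that choice. The uncalled peaks inside them were all above 0 in the third block and all below 0 in the middle one. The 3 uncalled peaks between the first and middle blocks were also below 0. Beyond the third block, 17 peaks towards the 3′ end were not called and ranged from -2.22 to 1.73 with a median of 1.11, per the authors' deposited table, 15 of them above 0.

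**Figure D3:**
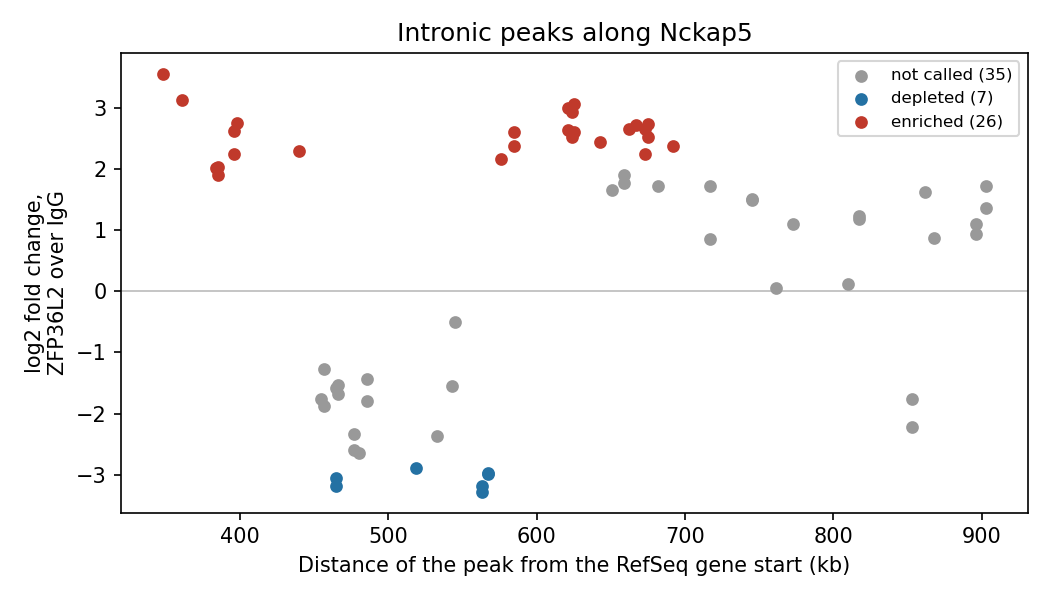
Log2 fold change (y axis) of the 68 Nckap5 peaks against distance from the RefSeq gene start in kb (x axis), coloured by call. Enriched peaks (red) stand on both sides of a middle block that holds the 7 depleted peaks (blue) and lies wholly below 0.

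The other 49 enriched members fell in 31 genes. Atp6v1e1, a subunit of the vacuolar proton pump, had 5 of 11 peaks enriched at 1.61 to 1.90, per the authors' deposited table. Trim44, a tripartite motif protein, had 4 of 9, from 1.79 to 3.05, per the authors' deposited table, all on chromosome 2 between 102311805 and 102338796. Its remaining peaks, one of them (-0.26) inside the start window of the gene, were not called. One Trim44 peak, at 102311805 to 102311881, overlapped the pseudogene Gm13868, and no source used here states how reads shared with a pseudogene were assigned. Neither gene had a depleted peak.

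Several genes had 1 short site with a large value. Rsrc1, which encodes a splicing-related protein rich in arginine and serine, was enriched in a pair of touching peaks of 5 and 18 nucleotides at the 5′-most end of its peaks (chr3:66991190-66991212), at 4.25 and 3.73 on the log2 scale, per the authors' deposited table. Mapre1, the microtubule plus-end protein EB1, had both of its touching peaks enriched at 3.64 and 3.78 (chr2:153745637-153745695), per the authors' deposited table. Enah, an actin regulator of the Ena/VASP family, had 2 of 9 peaks enriched with a best value of 3.02 (the authors' deposited table gives an adjusted p of 8.9e-07). Akap12, a protein kinase A anchoring protein, had 2 of 4 enriched, both at 3.02, per the authors' deposited table. In each of these genes the enriched pair was touching, so each pair is 1 unbroken stretch.

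Among genes with a metabolic role, Dbi, the acyl-CoA-binding protein also known as the diazepam binding inhibitor, had both of its peaks enriched at 2.26 and 2.28, per the authors' deposited table. They lay at chr1:120120498-120120528 and chr1:120120647-120120693. Gstm1, a glutathione transferase, had 2 of 5 enriched, the best at 1.80 (the authors' deposited table gives an adjusted p of 0.0015). Calm2 and Ubxn4, named here after their values were seen, were the other genes with 2 enriched peaks besides Kcnma1, Kdm4b and Stk3. Calm2, a calmodulin gene, had 2.21 as its best value and Ubxn4, an endoplasmic reticulum UBX protein, had 2.79, per the authors' deposited table.

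Single enriched peaks made up the rest, in 18 genes. The smallest adjusted p was in Nkain2, a partner of the sodium pump, at chr10:32732396-32732491 with a log2 fold change of 3.74 (the authors' deposited table gives an adjusted p of 1.9e-15). The other 17 Nkain2 peaks were not called, and the gene's median was -2.04, per the authors' deposited table. The uncharacterised D130040H23Rik had 1 peak, enriched at 4.85 (the authors' deposited table gives an adjusted p of 1.1e-10). Nxpe3 (4.01), Lrmda (3.90) and Sec62, a subunit of the endoplasmic reticulum translocon (3.60), had 1 enriched peak each, per the authors' deposited table. Hsd17b11, a 17-beta hydroxysteroid dehydrogenase gene that is in no list used here and is named after its values were seen, had 1 of 4 peaks enriched at 3.11 (the authors' deposited table gives an adjusted p of 3.1e-06). Aebp1, the extracellular matrix protein ACLP, and Nmt2, an N-myristoyltransferase, had smaller values of 2.54 and 2.15 but adjusted p-values of 2.5e-09 and 3.0e-07, per the authors' deposited table.

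Depleted members, where the deposited value was lower with ZFP36L2 than with IgG, lay in 308 genes, 178 of them with 1 such peak, 94 with 2 and 36 with more. Afg1l, a mitochondrial AAA ATPase, carried the lowest value of any member, -6.94 at chr10:42395006-42395040 (the authors' deposited table gives an adjusted p of 2.5e-25). Its 8 depleted peaks formed 4 touching pairs along the gene, with -5.13 and -4.89, -4.14 and -5.92, -6.51 and -6.94, and -4.05 and -3.59 by coordinate, per the authors' deposited table. The remaining 4 peaks were not called. All 12 of its values were below 0, as were 85.7% of all members.

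In 6 gene names with 3 or more members every member was depleted. Their members formed between 1 (Arl6ip6) and 4 (Akr1b3 and St8sia5) separate stretches per name. The same count was not made for the other intronic peaks or for all peaks, so it is not read as a trait of these genes. Akr1b3, aldose reductase of the polyol pathway, had 7 of 7 depleted between -5.01 and -2.85 within 2.76 kb (chr6:34308551-34311311), per the authors' deposited table. St8sia5, a sialyltransferase of ganglioside synthesis, had 6 of 6 between -5.50 and -3.08 over 48.9 kb, per the authors' deposited table. Arl6ip6 had 3 of 3, down to -5.95 (the authors' deposited table gives an adjusted p of 2.6e-17), in 1 touching group of 62 nucleotides. Folr1, a folate receptor, had 4 of 4 and Cog1, a subunit of the Golgi tethering complex, 3 of 3, both named after their values were seen. The sixth name, Gm42416, shares its 4 peaks with other gene names, 2 of the peaks with protocadherin alpha genes.

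Other low values came from genes with few peaks and from a gene cluster. Fbxo25, an F-box protein of ubiquitin ligases, had 2 of 3 peaks depleted, the lowest at -5.68, and Zfp607b, a zinc finger gene, had both of its peaks depleted at -4.97 and -4.71, per the authors' deposited table. Mroh2a had both peaks depleted, the lower at -4.90 (the authors' deposited table gives an adjusted p of 1.1e-07). The UDP-glucuronosyltransferase names Ugt1a10 and Ugt1a6b had 6 of 14 peaks depleted, down to -4.20, per the authors' deposited table. These are the same peaks counted for each name. The Ugt1a genes have their own first exons and share the later ones.

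Most genes with several called peaks had them in 1 direction. Of 143 genes with at least 2 called members, 125 had depleted ones only, 11 enriched ones only and 7 both. The 7 were Nckap5, Kcnma1, Stk3, Kdm4b, Lrmda, Klf12 and Garem1, the last 2 named after their values were seen. They were 7 of 1811 names, against 31 of 3910 for the other intronic peaks and 107 of 10818 in the whole table. These totals include names with 1 peak, which cannot have both calls. Genes with at least 2 called peaks were not counted in the other sets. Depleted members outnumbered enriched ones by 4.39 to 1. Touching members had the same sign in 96% of pairs, and neighbours that did not touch in 80.1% to 84.2%. The preponderance of 1 direction is therefore not read as a trait of these genes. Kcnma1, the large-conductance calcium-activated potassium channel, had its 2 enriched peaks 31.9 to 238 kb from the gene start and its 7 depleted ones 301 to 576 kb from it. Most peaks of both spans were not called: the first span held 27 peaks, with values down to -2.81, and the second 19, with values up to 0.87. The enriched ones were 4.90 (chr14:23767271-23767405, adjusted p = 3.0e-14) and 1.99, and the depleted ones ran from -5.0 to -3.10, per the authors' deposited table. Stk3, the Hippo pathway kinase MST2, had 2 touching enriched peaks at 2.56 and 2.7 and 4 depleted ones between -4.25 and -2.90, farther towards the gene start, per the authors' deposited table. Kdm4b, a histone H3 lysine demethylase, had 2 of each among 13 peaks, with a highest value of 3.80 and a lowest of -2.89, per the authors' deposited table. The highest Kdm4b peak overlapped the long noncoding RNA Gm32715.

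The 18 genes with over 20 members differed in the level of their whole set of peaks. Cyp11a1 (median 4.20), Nckap5 (1.5), Msi2 (0.77) and Rsrc1 (0.72) had medians above 0, per the authors' deposited table, and the other 14 had medians from -2.30 to -0.21. Msi2, which encodes the RNA-binding protein Musashi 2, had 61 members and no call, with 51 of its values above 0, an interquartile range of 0.28 to 1.06 and a smallest adjusted p of 0.31, per the authors' deposited table. Wwox, a WW-domain oxidoreductase gene at a common fragile site, had the most members, 83, of which 8 were depleted, and only 5 of the 83 were above 0. Its values ran from -3.56 to 1.16 with a median of -1.66, close to the median of all members, per the authors' deposited table. Smyd3, a SET-domain methyltransferase gene singled out after its values were seen, had the lowest median, -2.30, with all 30 peaks below 0 and 3 depleted, per the authors' deposited table. Ube2e2, a ubiquitin-conjugating enzyme gene, had 2 of 42 depleted around a median of -1.81, and Lrmda, linked to melanocyte differentiation, had 3 of 58 depleted around -0.94, per the authors' deposited table. Of the 299 genes with at least 5 members, 23 (7.69%) had a median above 0.

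**Figure D4:**
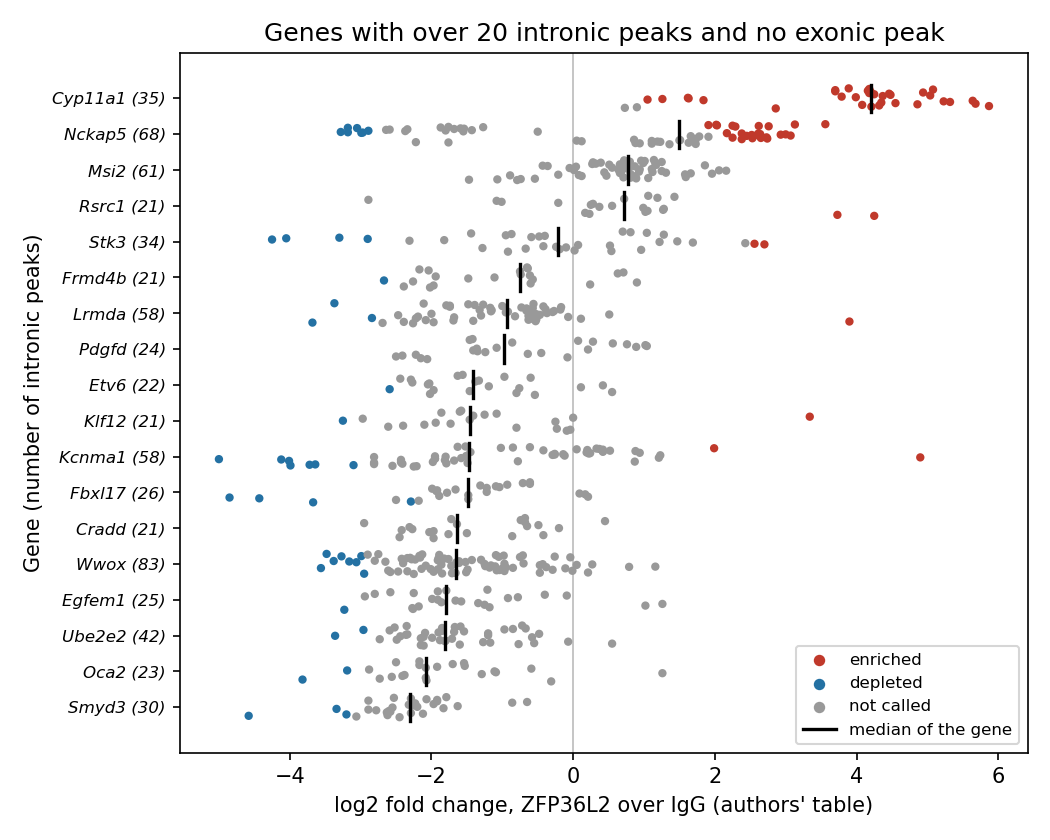
Log2 fold change of every intronic peak (x axis) in the 18 genes with over 20 members (y axis, number of peaks in brackets), coloured by call, with a black bar at each gene's median. Cyp11a1, Nckap5, Msi2 and Rsrc1 have medians above 0, and the 61 Msi2 peaks hold no called one.

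Adjacent peaks had similar values where they touched. Of all members, 3778 (63.9%) touched another, so the 5909 peaks were 4007 separate stretches, with 70 of them holding an enriched peak and 361 a depleted one. For 1893 touching neighbours of 1 gene entry, the log2 fold changes differed by a median of 0.24 and had the same sign in 96% of pairs. For neighbours in the same gene that did not touch, the median difference was 0.84 under 1 kb apart (259 pairs), 0.85 at 1 to 10 kb (884 pairs) and 0.85 at 10 kb or more (1066 pairs). In that order, 83.8%, 80.1% and 84.2% of these pairs had the same sign, in a set with 85.7% of values below 0. Whether reads that span a shared border account for the similar values of touching peaks was not tested. Touching peaks cannot be taken as independent sites. Beyond contact the difference hardly varied with distance.

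Members were narrow, with a median width of 33 nucleotides (range 2 to 207), the same as other intronic peaks. Enriched members had a median of 37.5 nucleotides (42 without Cyp11a1 and Nckap5) and depleted members 33. The genes were somewhat shorter than other genes with intronic peaks: 1783 of the 1811 names matched a RefSeq gene, with a median length of 36 kb, against 51.8 kb for genes with both kinds of peak and 29.3 kb for all genes with an exonic peak. Across the 1783 genes, the number of members per gene had a Spearman rho of 0.34 with gene length, a description across genes that are not replicates. Protein-coding genes made up 1774 of the names, long noncoding RNAs 6. A RefSeq gene listed under none of the peak's names, synonyms counted and strand not considered, overlapped 353 members (5.97%), of which 2 were enriched and 18 depleted.

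Along the gene, members were spread almost evenly, with 1481, 1541, 1463 and 1218 in 4 equal parts of the gene from its start among the 5703 that could be placed. Depleted members followed the same spread, 23.7% in the first part and 21.5% in the last. Enriched members were late, with 38% in the last part and 13.9% in the first, but without Cyp11a1 and Nckap5 16.3% were in the last part and 30.6% in the first. The share of depleted members varied little with the number of members in the gene, from 6.54% in genes with over 20 to 9.13% in genes with 6 to 10. Enriched shares were between 0.627% and 1.12% in all classes up to 20 members per gene, and 9.96% in genes with over 20, or 1.4% without Cyp11a1 and Nckap5.

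Gene lists put these sites into functional groups. Their members' counts are descriptions against the background of 2.22% enriched and 5.44% depleted. Of the listed steroid and Leydig cell genes, 19 had a peak in the table and 8 were member genes, with 81 members, of which 33 were enriched and 0 depleted. All 33 were those of Cyp11a1, and no peak of the other 7 was called. Lhcgr, the luteinizing hormone receptor, had 15 members between -2.01 and 0.97 with a median of -0.07, and Nr5a1, the steroidogenic transcription factor SF-1, had 6 between -0.55 and 1.90, per the authors' deposited table. Scarb1, which takes up cholesterol from lipoproteins, had 13 with a median of -0.30, and Fdx1, the electron donor of the side-chain cleavage enzyme, had 3 between -1.62 and -0.40, per the authors' deposited table. Inha (median -0.54), Nr4a1 (0.33) and Srd5a1 (-1.12) completed the list, per the authors' deposited table.

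The list of neuronal adhesion and synapse genes, a group known for very long introns, gave 13 member genes with 103 members, 26 enriched and 11 depleted. Nckap5, whose function was not checked for its place in this list, supplied 68 of the 103. All 26 enriched ones were in Nckap5, and the depleted ones were 7 in Nckap5, 2 in Astn2, an astrotactin (lowest -3.97), and 2 in Dpp6, a potassium channel subunit (lowest -4.23), per the authors' deposited table. Genes at large fragile sites (5 genes, 107 members) had 0 enriched and 9 depleted, namely 8 in Wwox and 1 in Macrod2, an ADP-ribose hydrolase gene (-4.21), per the authors' deposited table. Both lists also hold Ctnna3 and Dlg2. Channel genes (6 genes, 80 members) had 2 enriched, both in Kcnma1, and 9 depleted, with 1 each in the calcium channel subunits Cacnb2 (-3.21) and Cacna1e (-3.36), per the authors' deposited table. The glutamate receptor genes Grik4 (-4.77) and Grin1 (-2.35) each had 1 member, which was depleted, per the authors' deposited table.

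The remaining lists had no enriched member, except the predicted and uncharacterised genes. Nuclear receptor and coactivator genes (10 genes, 52 members) had 5 depleted, in Nr6a1, Rarb, the retinoic acid receptor beta, Ppargc1a, the mitochondrial biogenesis coactivator, and Thrb, a thyroid hormone receptor, with lowest values of -3.65, -3.80, -3.62 and -2.82, per the authors' deposited table. Solute carrier genes (41 genes, 143 members) had 11 depleted (7.69%), including Slc25a38 (-4.48), Slc35d1 (-3.91), Slc9a7 (-3.85), Slc46a3 (-3.73) and Slc6a15 (-3.59), per the authors' deposited table. Collagen and matrix genes (8 genes, 15 members) had 3, single peaks of Col4a3 (-3.69), Col11a2 (-3.39) and Col27a1 (-3.08), per the authors' deposited table. Axon guidance genes (4 genes, 14 members) had 1, in Slit1 (-3.20), and phosphodiesterase genes (5 genes, 30 members) had 1, in Pde8b (-3.03), per the authors' deposited table. Predicted and uncharacterised genes (69 genes, 189 members) had 17 depleted (8.99%) and 1 enriched, the D130040H23Rik peak. The protocadherin list had 2 members, both depleted (-3.35 and -3.29, per the authors' deposited table) and both shared by 5 protocadherin alpha names and Gm42416. Vegfa was the only member gene of the AU-rich mRNA list, with 3 uncalled peaks between 0.28 and 0.74, and Ryr1 that of the muscle list, with 3 uncalled peaks, per the authors' deposited table.

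The cell type label was compared with marker genes by whether they had a peak anywhere in the table, which depends on expression and on peak calling. Of 7 Leydig markers 4 had a peak (Cyp11a1, Star, Lhcgr and Nr5a1), and Hsd3b1, Cyp17a1 and Insl3 had none. Sertoli markers had a peak in 2 of 6, germ cell markers in 1 of 5, macrophage markers in 4 of 4, endothelial markers in 5 of 5 and peritubular myoid markers in 2 of 3. A peak counted here whatever its log2 fold change. At least 1 enriched peak was found for 2 Leydig, 1 Sertoli and 1 macrophage marker. Germ cell, endothelial and peritubular myoid markers had 0, and the share over all genes was 5.04%. Among member genes, the larger lists of Sertoli and germ cell markers held Gata1, Ddx4 and Kit, none with a called peak, and the macrophage, endothelial and smooth muscle lists held none. The part of other cell types in the results was not tested.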

How the data were processed

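The authors deposited 1 table, with 1 row per peak, of eCLIP of ZFP36L2 against IgG in MLTC-1 cells. Per the submitters' processing notes, the tools were DESeq2 1.34.0, STAR 2.7.7a, cutadapt 3.2 and UMI-tools 1.1.1 and the build mm10, with no role or order stated. No source used here states how peaks were called, whether libraries were pooled, whether inputs entered or how fold changes were scaled. Per the file headers, the fold change was deposited as log2, and the p-value and adjusted p-value were deposited as −log10 values rounded to 2 decimals, so 3 members that round to the threshold of 0.05 cannot be placed on either side of it and count as not called. The direction follows the table's name. A Benjamini-Hochberg adjustment over all peaks gave the deposited adjusted values to within 0.0099 (−log10).

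Values per library were not used here, so depth is unknown, no test was added, and p-values, whose spread between libraries is unknown, are the authors'. With nothing in the labels on separate cultures, that spread may be technical. Starts were raised by 1 to give 1-based positions. Gene names, regions and classes are the table's. A peak with several names (53 members) counted for each name. RefSeq spans and start windows are from GRCm38.p6, the same build as mm10. Bases of 1947 overlapping windows of opposite strands were compared, and all 1947 were the same. That comparison sets the windows against one another and does not test their match to the peak coordinates. The call and member functions were tested on simulated data.

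The members, the lists and the rule for named genes were chosen with earlier results of these data known. The rule took the 12 genes with most enriched and 8 with most depleted members, the genes of the 10 largest and 10 best-supported enriched and 8 lowest depleted peaks, the 8 with most members, up to 5 called genes per list, and Cyp11a1, Lhcgr and Nckap5. Analyses used Python 3.11.15, pandas 2.3.3 and numpy 2.4.6. Part of 1 list is not reported here.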

Additional observations from a re-analysis of the deposited data

How the results depend on the processing

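Of the 41 values obtained under other settings, 32 stayed within 1.5 times the count, or within the 95% interval of the median, given above, and no direction turned. At an adjusted p under 0.01, 288 members were depleted in 201 genes, against 474 in 308. With 1 peak per gene, the one with the smallest adjusted p and, in ties, the larger absolute log2 fold change, 31 members were enriched and 287 depleted, with a median log2 fold change of -2.02; this choice favours large values by construction. With touching peaks merged, 70 enriched members were left and the median was -1.68. Centring on the median of all peaks moved the members' median to -0.56. Without Cyp11a1 and Nckap5, 49 members were enriched. The counts of genes with an enriched member ran from 27 to 33 under the settings tried for it. No paired analysis was possible because the table holds no value of a single library. For the same reason no library could be left out, and with depth unknown it cannot be said which uncalled peaks lacked reads.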
